A study of Homo sapiens with 6 samples.

Results

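The platelet-derived growth factor (PDGF) family was described in the established ovarian cancer line HEY, of human origin, with and without overexpression of the microRNA miR-200a. Its 7 members were picked by gene symbol from the 58735 genes of the deposited table. They are the ligands PDGFA, PDGFB, PDGFC and PDGFD, the receptors PDGFRA and PDGFRB and the receptor-like gene PDGFRL. PolyA RNA was sequenced in 3 libraries of cells overexpressing miR-200a and 3 libraries of empty-vector cells, all cultured in RPMI-1640 with 10% FBS (fetal bovine serum). The labels do not say how the microRNA was delivered or whether the cells were a clone or a pool. Separate cultures behind the libraries are not stated either, and p-values therefore reflect the spread between libraries, which could be technical. The labelled incubation was 48 to 50 h in the miR-200a group and 51 to 53 h in the vector group, so time and group cannot be told apart.

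PDGF ligands are secreted dimers that bind and pair receptor tyrosine kinases on the cell surface. The A and B chains form homodimers or an AB heterodimer, whereas the C and D chains form homodimers that carry an extra CUB domain, which a protease must remove before they can bind. The alpha receptor binds A, B and C chains and the beta receptor binds B and D chains, and both signal through phosphoinositide 3-kinase, phospholipase C gamma, SRC kinases and the RAS cascade. In carcinomas the ligands are often made by the tumour cells, and the receptors are typically carried by fibroblasts and pericytes of the stroma.

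The microRNA is shown because its seed (bases 2 to 8, in capitals) sets which transcripts it can pair with. The mature sequences are from RefSeq (GRCh38.p14), with the 3p arm at chr1:1167916-1167937 and the 5p arm at chr1:1167878-1167899, both on the plus strand.
hsa-miR-200a-3p: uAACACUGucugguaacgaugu
hsa-miR-200a-5p: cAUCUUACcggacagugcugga

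The longest annotated 3' UTR of each member in GENCODE 29 was searched, on the transcript strand, for CAGTGTT, which pairs with the seed of the 3p arm, and for GTAAGAT, which pairs with that of the 5p arm. CAGTGTT was found in 4 of the 7 members, and in 2288 of 10211 tested genes with an annotated 3' UTR (22.4%). The members' UTRs had a median of 1983 bases and those of the tested genes a median of 1442, so the shares are not matched for length. Of the members with a match, only PDGFA was itself among the tested genes, so the shares are not matched for expression level either. PDGFRA had 3 matches and PDGFA, PDGFD and PDGFRB had 1 each, while PDGFB, PDGFC and PDGFRL had 0. In PDGFD the match is followed by an A, the longer form of a seed site, which 5.99% of the tested genes had. PDGFA also had the only match to the 5p arm among the members, in a search that found GTAAGAT in 9.83% of the tested genes. That match is followed by an A as well, which 3.14% of the tested genes had for the 5p arm. The matches are printed with their surroundings, the paired 7 bases in capitals, to show what distinguishes the members; a match is not evidence of binding.
PDGFD, chr11:103908057-103908086, minus strand: gggctggtaaagtccCAGTGTTagatgagt
PDGFA, chr7:497449-497478, minus strand: cactccctctgctgcCAGTGTTtggacaga
PDGFA (5p arm), chr7:497414-497443, minus strand: aattctttatttttgGTAAGATattgtgct
PDGFRB, chr5:150115230-150115259, minus strand: gggcctagccttgagCAGTGTTgcctcatc
PDGFRA, chr4:54295443-54295472, plus strand: tgaaatgaactttgtCAGTGTTgcctcttg
PDGFRA, chr4:54297035-54297064, plus strand: aaaaattatgcaattCAGTGTTccaagtct
PDGFRA, chr4:54297064-54297093, plus strand: tctgtgtaaccagctCAGTGTTttggtgga

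The values are FPKM, fragments per kilobase of gene length scaled to the size of the library. The gene length of PDGFB (3761 bases) is that of all its annotated exons together, and the transcript forms expressed were not measured. Levels of different genes can therefore be set side by side only approximately. Whole reads were recovered from the FPKM values, 15849592 to 21003858 per library. The microRNA precursor gene MIR200A had 4 to 11 reads in the miR-200a libraries and 0 in every vector library, which checks the labels; the mature microRNA was not measured. The ovarian lineage factor PAX8 stood at 29.1 to 41.2 FPKM. The epithelial keratin KRT7 stood at 158 to 195 FPKM with miR-200a and 126 to 142 with the vector. KRT8, KRT18 and MSLN of the same 8-gene list averaged 7.84 FPKM or more in both groups. WT1 (0.957 against 0.951 FPKM) and EPCAM (0.131 against 0.263) were low. MUC16, the gene of CA-125, was listed at 0 in all 6 libraries. Library miR-200a 2 stood apart: the chi-square per degree of freedom of its reads was 6.74 against vector 2, but 19.6 and 21.9 against miR-200a 1 and 3, which differed from each other by 2.08. Vector 1 also stood apart from its group, at 19.97 against vector 2 and 15.3 against vector 3, which differed from each other by 4.61. PDGFA, PDGFB, PDGFC, FURIN, PLAT, PLAU, HAS2 and CSPG4 are given with and without miR-200a 2, and PDGFB and HAS2 also without vector 1.

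HEY cells carried transcripts of 3 PDGF ligands at levels above the middle of the tested genes, and very few of the receptors. Over the 6 libraries PDGFC averaged 27.1 FPKM, more than 87.6% of the tested genes, PDGFB 12.0 (above 71.0%) and PDGFA 8.30 (above 60.1%). PDGFD averaged 0.288 FPKM, PDGFRL 0.103, PDGFRB 0.0746 and PDGFRA 0.0209. In vector cells the order by FPKM was PDGFC, PDGFA, PDGFB, then PDGFD, and no library of one ligand reached the range of the next. In miR-200a cells PDGFB stood above PDGFA, again without overlap. The ranges of PDGFRB and PDGFRL overlapped in both groups, so their order is not settled. Genes were tested where they reached 1 FPKM in at least 3 libraries, which PDGFA, PDGFB and PDGFC did and the other 4 members did not.

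**Figure D1:**
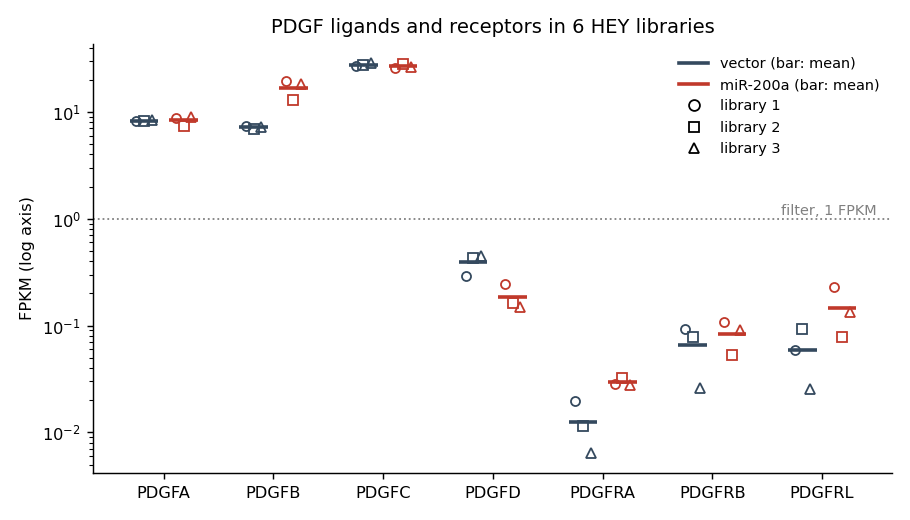
FPKM on a log axis for the 7 PDGF family members, with 1 symbol per library and a bar at the mean of each group of 3. PDGFB is higher in the miR-200a libraries (13.1 to 19.4 against 6.98 to 7.36 FPKM), PDGFA and PDGFC lie at like levels in both groups, and PDGFD and the receptors lie below the filter of 1 FPKM.

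PDGFB, the chain that binds both receptors and recruits pericytes to vessels (ENSG00000100311, GRCh38 chromosome 22, 39223359 to 39244751, minus strand), was the tested member that differed most. It stood at 19.4, 13.1 and 18.2 FPKM in miR-200a libraries 1 to 3 and at 7.36, 6.98 and 7.26 in vector libraries 1 to 3. Every miR-200a library lay above every vector library, and miR-200a 2 lay closest to the vector range. These values rested on 784 to 1327 reads with miR-200a and 442 to 583 with the vector. The group means were 16.9 ± 3.35 and 7.20 ± 0.200 FPKM (SD, n = 3 each), a 2.34-fold difference, or 1.10 (SE 0.139) on the log2(FPKM + 1) scale. Without miR-200a 2 the mean of the other two was 18.8 FPKM, 2.61-fold above the vector mean. Without vector 1 the log2 difference was 1.12.

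The family was taken up because an earlier fit of these same libraries had named PDGFB, so its difference is a description and not a new test. In the limma fit over all 12231 tested genes, PDGFB (adjusted p = 0.030) was the only one of the tested members among the 49 called genes, which make up 0.401% of those tested. The call was lost without miR-200a 1, miR-200a 3, vector 1, vector 2 or vector 3, with limma adjusted p-values up to 0.141, while the log2 difference stayed between 1.00 and 1.27. Without miR-200a 2 the limma adjusted p was 0.00317, in a setting where 225 of the 12231 tested genes were called. The miR-200a libraries left in it, 1 and 3, were the most alike of all pairs (chi-square per degree of freedom 2.08). Lower p-values in that setting, here and below, are therefore not read as firmer evidence. In a culture measured in bulk, more RNA per cell and more cells of a kind cannot be told apart.

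PDGFA, whose chain acts through the alpha receptor (ENSG00000197461, chromosome 7, 497258 to 520296, minus strand), did not follow PDGFB. It stood at 8.75, 7.38 and 8.91 FPKM in miR-200a libraries 1 to 3 and at 8.21, 8.26 and 8.31 in vector libraries 1 to 3. The miR-200a libraries lay on both sides of the vector range, with miR-200a 2 the lowest of all 6. The log2 difference was 0.01 (SE 0.084), and 0.09 (SE 0.056) without miR-200a 2.

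PDGFC, the ligand with the highest level (ENSG00000145431, chromosome 4, 156760454 to 156971394, minus strand), stood at 26.0, 28.0 and 26.0 FPKM in miR-200a libraries 1 to 3. It stood at 26.6, 27.6 and 28.4 FPKM in vector libraries 1 to 3, so the groups overlapped. Its log2 difference was -0.05 (SE 0.069), and -0.08 (SE 0.059) without miR-200a 2.

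PDGFD, the ligand of the beta receptor (ENSG00000170962, chromosome 11, 103907186 to 104164379, minus strand), was low and lay in the other direction from PDGFB. It had 0.244, 0.161 and 0.151 FPKM (19, 11 and 12 reads) in miR-200a libraries 1 to 3. In vector libraries 1 to 3 it had 0.289, 0.433 and 0.449 FPKM (26, 33 and 31 reads). The groups did not overlap, although miR-200a 1 and vector 1 lay close together. Summed over each group and scaled to depth, the read rate with miR-200a was 0.486 of the vector rate, with an exact 95% interval of 0.329 to 0.709 that covers counting error only. Whether its seed match has a part in its level was not tested. Of its exons, 193 bases are shared with DDI1 on the other strand, which was listed at 0 in all 6 libraries.

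The make-up of the ligand transcripts therefore differed between the groups. In each library the FPKM of the 4 ligands were summed, giving 48.6 to 54.3 with miR-200a and 42.5 to 44.4 with the vector. PDGFB made up 35.6, 26.9 and 34.1% of that sum in miR-200a libraries 1 to 3 and 17.3, 16.1 and 16.4% in vector libraries 1 to 3. PDGFC made up 51.4 ± 5.39% of it in the miR-200a group, where the vector group had 63.5 ± 0.685% (SD, n = 3 each). The level of PDGFB relative to PDGFA, the chain with which it can form a heterodimer, was 2.21, 1.77 and 2.04 in miR-200a libraries 1 to 3. In vector libraries 1 to 3 it was 0.896, 0.844 and 0.874. By FPKM, PDGFB thus lay above PDGFA in every miR-200a library and in no vector library. The ratio of PDGFB to PDGFA is taken within a library and does not depend on the scaling between libraries. Whether it lies above 1 does depend on the gene lengths used, so it does not settle which transcript was more numerous. PDGFC relative to PDGFA ranged from 2.92 to 3.80 with miR-200a and from 3.24 to 3.42 with the vector, so these ranges overlapped. The shares and ratios come from the same values that put PDGFB in view and add no independent evidence.

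**Figure D2:**
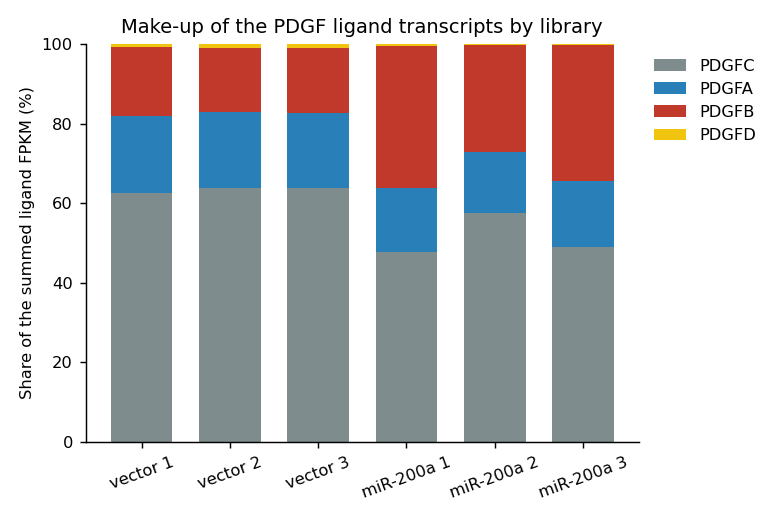
Share of each ligand in the summed FPKM of PDGFA, PDGFB, PDGFC and PDGFD, in percent, 1 stacked bar per library. The PDGFB share lies between 16.1 and 17.3% in the vector libraries and between 26.9 and 35.6% in the miR-200a libraries.

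The receptors were near the limit of detection in both groups. PDGFRA, the alpha receptor (ENSG00000134853, chromosome 4, 54229097 to 54298247, plus strand), had 5 reads in each miR-200a library and 4, 2 and 1 in vector libraries 1 to 3. That is 0.0275 to 0.0322 FPKM against 0.00635 to 0.0195, without overlap, but the ratio of read rates was 2.23 with an exact 95% counting interval of 0.857 to 6.48. It shares 1533 exonic bases on the same strand with AC058822.1, which was listed at 0 in all 6 libraries.

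PDGFRB, the beta receptor (ENSG00000113721, chromosome 5, 150113837 to 150155872, minus strand), had 14, 6 and 12 reads (miR-200a libraries 1 to 3) and 14, 10 and 3 reads (vector libraries 1 to 3). The groups overlapped, at 0.0526 to 0.108 against 0.0260 to 0.0931 FPKM. The ratio of read rates was 1.24, with an exact 95% counting interval of 0.717 to 2.14. A difference was therefore not detected at this depth.

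PDGFRL, which resembles the extracellular part of the PDGF receptors (ENSG00000104213, chromosome 8, 17576433 to 17644071, plus strand), had 10, 3 and 6 reads from the first to the third miR-200a library. From the vector libraries it had 3, 4 and 1 reads, and the groups overlapped (0.0780 to 0.228 against 0.0257 to 0.0929 FPKM). The ratio of read rates was 2.48, with an exact 95% counting interval of 1.03 to 6.54. It shares 277 exonic bases with MTUS1 on the other strand, which stood at 0.142 to 0.261 FPKM, and the strand setting of the counting is not known. Over all members, the groups did not overlap for PDGFB, PDGFD and PDGFRA, 3 of 7, where this held for 12.7% of the 31124 genes with at least 1 read. Since the members were chosen with this contrast known, nothing is read from that count.

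Of the other genes of the pathway, 97 were listed and 80 reached the filter. HAS2 was lower and 0 were higher at a limma adjusted p under 0.05, where 0.114% of all tested genes were called lower and 0.286% higher. At an unadjusted limma p under 0.05 there were 15 of the 80, where 13.3% of all tested genes passed. With voom on recovered reads, HAS2 was again the only call. The median log2 difference of the 80 genes was -0.04, with -0.01 over all tested genes. The lists were drawn up with earlier results of these data known.

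Among the proteases that process PDGF precursors and the proteins that bind them (9 of 11 tested), 0 passed with limma, 4 had an unadjusted p under 0.05 and the median log2 difference was 0.09. FURIN, which cleaves the A and B precursors, stood at 25.3, 16.8 and 25.0 FPKM in miR-200a libraries 1 to 3 and at 16.9, 14.3 and 15.5 in vector libraries 1 to 3. Only miR-200a 2 fell within the vector range, as it also lay lowest of its group for PDGFB. The limma adjusted p of FURIN was 0.314, and 0.0377 without miR-200a 2, where it was the 1 pathway gene called higher. In that setting 225 of all 12231 tested genes were called, so nothing particular to FURIN is read from its call. PLAT, the tissue plasminogen activator that removes the CUB domain of PDGF-C, stood at 12.1 to 15.0 FPKM with miR-200a and 8.94 to 10.9 with the vector (limma adjusted p = 0.209, and 0.0564 without miR-200a 2). PLAU, the urokinase that does so for PDGF-D, averaged 344 FPKM in the miR-200a libraries and 262 in the vector libraries (limma adjusted p = 0.229, or 0.0728 without miR-200a 2). The groups did not overlap for either protease, which held for 19.0% of all tested genes. NRP1, a co-receptor, stood at 21.0 to 21.5 FPKM with miR-200a and 23.5 to 26.2 with the vector (limma adjusted p = 0.318).

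The list of related VEGF ligands, VEGF receptors and the receptors KIT, CSF1R and FLT3 had 4 of 11 members tested. Of these, 0 were called with limma and 1 had an unadjusted p under 0.05. PGF, the placental growth factor, stood at 2.93 against 2.07 FPKM and VEGFA, the main angiogenic factor, at 3.17 against 3.66 (limma adjusted p = 0.335 and 0.403). VEGFB stood at 16.0 against 15.1 FPKM and VEGFC, which acts on lymphatic vessels, at 5.80 against 5.44 (limma adjusted p = 0.825 and 0.747). The receptors of this list had no more than 0.288 FPKM in either group, the highest being KIT.

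The adaptors and kinases downstream of the receptors were expressed and differed little. Of 36 genes 34 were tested, 0 were called with limma, 5 had an unadjusted p under 0.05 and the median log2 difference was -0.04. PIK3R1, the regulatory subunit of phosphoinositide 3-kinase that docks on the receptors, stood at 3.62 against 4.52 FPKM and the RAS exchange factor SOS2 at 5.82 against 7.01. The kinase MAP2K1 stood at 19.5 against 17.1 FPKM and HRAS at 18.6 against 15.1. Their limma adjusted p-values lay between 0.301 and 0.340.

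Negative regulators had 13 of 14 members tested, 0 called with limma, 3 with an unadjusted p under 0.05 and a median log2 difference of -0.10. PTPN2, a phosphatase that acts on PDGF receptors, stood at 2.66 against 3.46 FPKM, and CBL, a ubiquitin ligase that sends receptors to degradation, at 14.2 against 16.9. DUSP6, which switches off ERK, stood at 14.9 against 17.2 FPKM and the phosphatase ACP1 at 15.4 against 17.7. The limma adjusted p-values of these genes lay between 0.292 and 0.400.

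Among genes that serum and growth factors are known to switch on, 17 of 21 were tested, 0 were called higher with limma and HAS2 was called lower. HAS2, a hyaluronan synthase, stood at 2.89, 3.57 and 2.89 FPKM in miR-200a libraries 1 to 3 and at 5.57, 6.57 and 5.78 in vector libraries 1 to 3 (log2 difference -0.76, SE 0.098, limma adjusted p = 0.0326). All 3 miR-200a libraries lay below all 3 vector libraries. Its call was lost when miR-200a 1, miR-200a 3, vector 1, vector 2 or vector 3 was left out, with limma adjusted p-values of 0.0939 (without vector 1) to 0.164, and it was 0.0309 without miR-200a 2. FOS stood at 2.78 against 3.67 FPKM and EGR1 at 1.81 against 2.40 (limma adjusted p = 0.285 and 0.384), and CCND1, the gene of cyclin D1, at 193 against 177 (limma adjusted p = 0.473). The transcription factors reported at PDGF promoters had 4 of 5 members tested and 0 called with limma, at an unadjusted p under 0.05 as well. Beside EGR1 these were SP1 at 21.5 against 22.4 FPKM, SP3 at 12.3 against 12.9 and ETS1 at 96.3 against 97.6. The 3p seed match was held by 26 of the 80 tested pathway genes (32.5%), whose 3' UTRs had a median of 2209 bases.

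**Figure D3:**
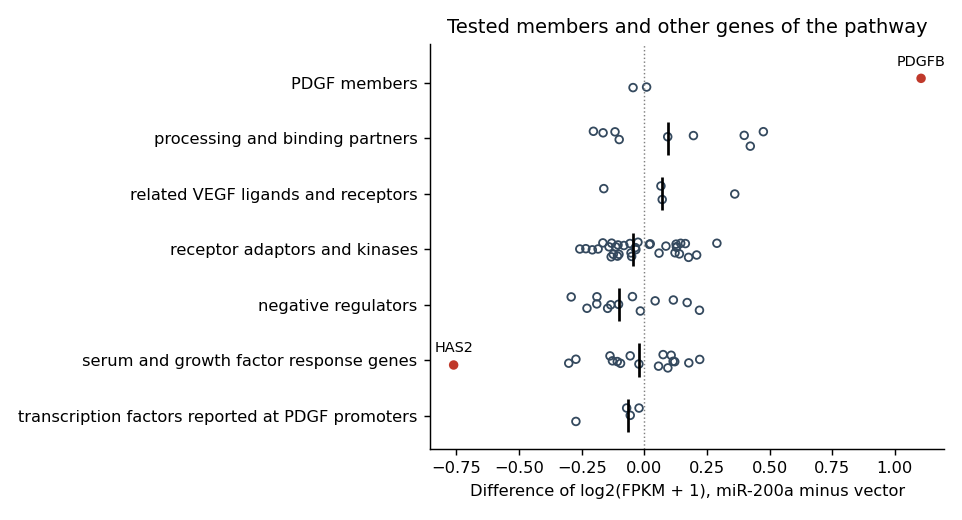
Difference of log2(FPKM + 1), miR-200a minus vector, with 1 point per tested gene, for the 3 tested PDGF members and 6 lists of other pathway genes. Filled points were called (limma adjusted p under 0.05), and vertical bars mark list medians. PDGFB lies at 1.10 and HAS2 at -0.76, while the other points lie between -0.30 and 0.48.

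The genes whose profile over the 6 libraries lay nearest to that of PDGFB were PTPRN2, TENM2, CSPG4, FBLN1 and AL645944.2. The measure was the root-mean-square distance between centred log2(FPKM + 1) profiles, 0.126 for PTPRN2 and 0.158 for AL645944.2. These 5 were picked for their likeness over the same contrast, so it describes them and tests nothing. CSPG4, a proteoglycan of pericytes and of some tumour cells, stood at 5.02, 3.17 and 4.96 FPKM in miR-200a libraries 1 to 3 and at 1.89, 1.71 and 2.23 in vector libraries 1 to 3 (limma adjusted p = 0.10, and 0.0309 without miR-200a 2). Like PDGFB and the other 4 of these genes, it was lowest in miR-200a 2 among the miR-200a libraries. FBLN1, a matrix gene that lies on chromosome 22 as PDGFB does, stood at 3.63, 2.63 and 3.50 FPKM in miR-200a libraries 1 to 3 and at 1.24 to 1.46 with the vector. PTPRN2, a phosphatase-like protein of secretory vesicles, stood at 1.01 to 1.43 FPKM with miR-200a and 0.0695 to 0.115 with the vector. TENM2, a teneurin of the cell surface, stood at 1.52 to 2.03 against 0.381 to 0.499 FPKM. AL645944.2 stood at 1.218 to 1.315 against 0.032 to 0.115 FPKM. PTPRN2, TENM2 and AL645944.2 thus reached the filter of 1 FPKM only through the miR-200a libraries. The pseudocount shrinks differences at such low levels, so likeness on this scale does not mean a like fold difference.

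**Figure D4:**
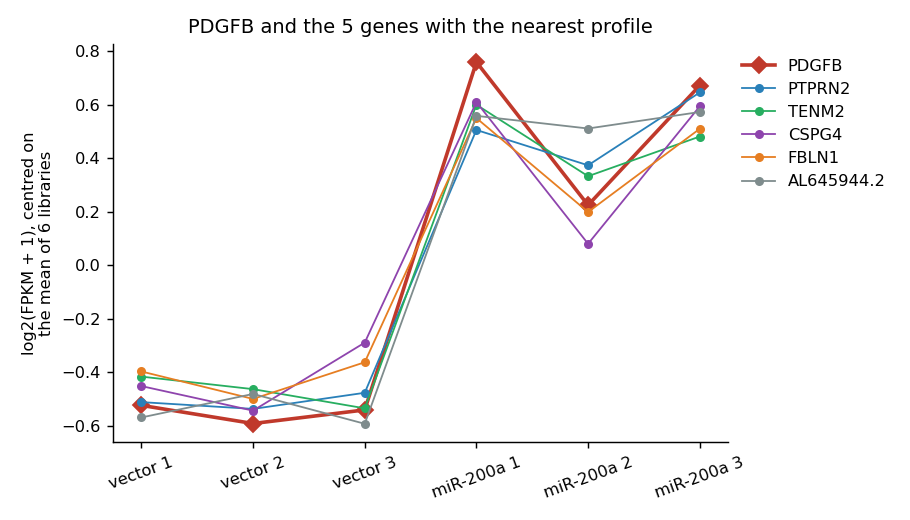
log2(FPKM + 1), centred on the mean of the 6 libraries, for PDGFB and the 5 genes with the smallest root-mean-square distance from it, with 1 point per library. All 6 genes lie above their vector values in each miR-200a library, and each is lowest in miR-200a 2 among the miR-200a libraries.

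Markers of cells that typically carry PDGF receptors or release PDGF were looked at as well. Of 8 pericyte and smooth muscle markers, CSPG4 and ACTA2 were tested, none of the 8 was at 0, and the list summed to 9.12 to 11.2 FPKM with miR-200a and 7.52 to 8.61 with the vector. ACTA2 stood at 4.20 FPKM in both groups, RGS5 at 0.741 against 0.753 and DES had 3 reads in all 6 libraries together. NOTCH3 stood at 0.146 against 0.0376 FPKM (74 against 19 reads) and MYH11 at 0.243 against 0.166 (207 against 149 reads). Neither overlapped between the groups, which held for 12.7% of the 31124 genes with at least 1 read. KCNJ8 lay the other way, at 0.667 against 1.03 FPKM (87 against 140 reads), with overlapping groups. The part of these cell types in the level of PDGFB was not tested. Of 6 endothelial markers 1 was tested, CDH5, and the list summed to 40.2 to 52.1 against 35.7 to 43.0 FPKM. That sum was almost all CDH5, at 39.53 to 51.15 FPKM with miR-200a and 35.19 to 42.19 with the vector. The highest of the other endothelial markers was PECAM1, at 0.354 against 0.304 FPKM. Fibroblast markers (1 of 5 tested) summed to 6.49 to 7.31 against 6.37 to 6.93 FPKM. Most of that was FAP, at 5.8 against 5.7 FPKM, while DCN had 6 reads over the 6 libraries. Platelet markers (0 of 5 tested) summed to 0.349 to 0.671 against 0.386 to 0.597 FPKM with PF4, PPBP and GP9 at 0, and leukocyte markers (0 of 4 tested) to at most 0.138 FPKM with CD3E at 0.

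The tested genes around PDGFB leaned the same way, by less. Within 1 Mb of its start 25 other genes were tested, of which 21 had a positive and 4 a negative log2 difference, with a median of 0.12, where 48.1% of all tested genes had a positive one. The largest of these differences was 0.49, and 0 of the 25 were called with limma. The nearest tested genes were SNORD83A, 70.6 kb away, at 8.43 against 8.40 FPKM, and the Polycomb gene CBX7, 92.1 kb away on the other side, at 1.49 against 1.11 (limma adjusted p = 0.893 and 0.360). Without miR-200a 2 the count was again 21 of 25, with a median of 0.10 and a largest difference of 0.67. The share of all tested genes with a positive difference was not taken in that setting. Around PDGFA, which itself differed by 0.01, 10 of 11 tested genes had a positive difference (median 0.15, or 0.29 with 9 of 11 positive without miR-200a 2). With all libraries, the counts were 1 of 1 around PDGFC and 1 of 3 around each of PDGFD and PDGFRA. They were 8 of 19 around PDGFRB and 1 of 8 around PDGFRL. The part of the surrounding genes' shift in the level of PDGFB was not tested.

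**Figure D5:**
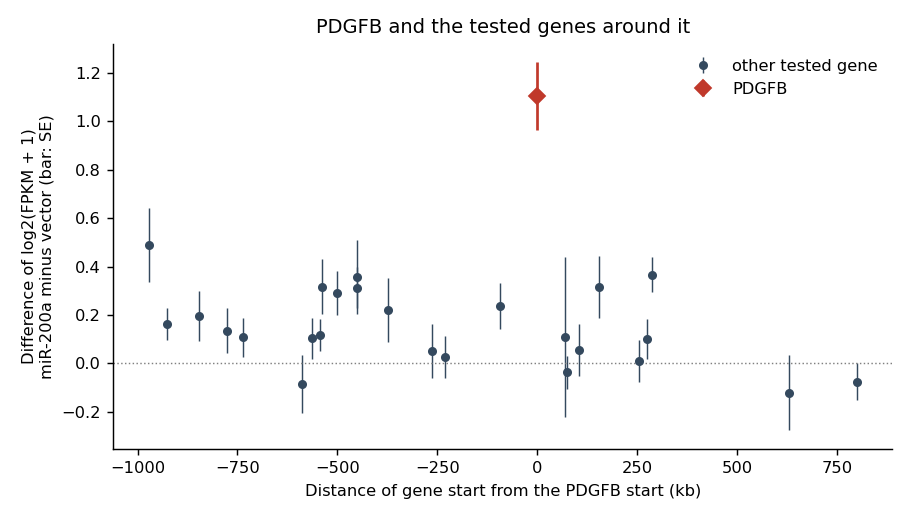
Difference of log2(FPKM + 1), miR-200a minus vector, with its SE, for PDGFB and the 25 other tested genes whose start lies within 1 Mb of its start, plotted by distance in kb. PDGFB lies at 1.10 and the other genes between -0.12 and 0.49.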

How the data were processed

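PolyA RNA-seq was analysed in 3 miR-200a and 3 vector libraries of HEY. The authors deposited 1 table of FPKM values for 58735 genes; the sources used here do not give the aligner, the counter or the strand setting. Per the submitters' processing notes the builds were mouse ones, but all 58735 gene positions equalled those of human GENCODE 29, so coordinates are on GRCh38. The authors' FPKM values times the deposited gene length were whole multiples of 1 read per library for 100% of nonzero values (within 0.001 of a read), which gave reads and depth. Per the deposited table header, the column of gene length is in bases.

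Genes with at least 1 FPKM in at least 3 libraries (12231) were fitted with limma 3.58.1 in R 4.3.3 by lmFit and trended eBayes, with log2(FPKM + 1) as the response and only the group as a term. Tests were two-sided, with Benjamini-Hochberg adjustment over all tested genes and a threshold of 0.05. The pseudocount makes log2 differences of low genes too small, so low members are described by reads, with exact conditional intervals of rate ratios that cover counting error only. The pipeline was also run on simulated reads with the same added spread for every gene, which does not gauge the calls in these libraries. The named genes were all members, up to 4 genes per list by smallest adjusted p, FURIN, PLAT, PLAU and NRP1, the 5 nearest profiles to PDGFB and the nearest tested genes to the tested members. CTSO, GLRB, FAM20C and DNAAF5, neighbours of PDGFC and PDGFA, had limma adjusted p-values of 0.682 to 0.900. MIR200A, PAX8, KRT7, MUC16, KIT and the markers named with their lists fall outside that rule. The members and lists were chosen with earlier results of these data known. Alternatives were another pseudocount, 2 other filters, upper-quartile scaling, each library left out, a replicate block and voom.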

Additional observations from a re-analysis of the deposited data

How the results depend on the processing

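The PDGFB difference of 1.10 (log2) moved by less than the spread between replicates under every alternative run. It lay between 1.00 and 1.27 with 1 library left out, at 1.20 with a pseudocount of 0.1 and at 1.21 with voom on recovered reads, a fit chosen after seeing the data. Its limma adjusted p was 0.145 when all 31124 genes above 0 were tested. With 1 library left out, 0 to 1 pathway genes were called higher (FURIN without miR-200a 2) and 0 to 1 lower, and with all genes above 0 tested 0 were lower, where more genes share the adjustment. Over all tested genes 49 were called, 8 to 225 with 1 library left out (225 without miR-200a 2), 5 with all genes above 0 tested and 114 with voom; the cause was not tested. PDGFA and PDGFC kept within their spread in 12 of 12 alternatives each, and PDGFD and the receptors in 9 of 10, the pseudocount of 0.1 giving larger differences (PDGFD -0.78). With the replicate block, PDGFB was at 1.10 (limma adjusted p = 0.0232), HAS2 at an adjusted p of 0.0232, and 69 genes were called. Deviations of same-numbered libraries correlated at 0.143, 0.366 and -0.006. The 0.366 of miR-200a 2 with vector 2 was the highest of all pairs, and miR-200a 1 also correlated best with vector 1. By contrast, miR-200a 3 correlated best with vector 1 (0.203). Whether the numbers pair the libraries is therefore not settled, and the main fit did not pair them. The planned edgeR and DESeq2 fits were not run, since the deposited values are FPKM; voom took their place. Depth limits the receptors: 1 read was worth 0.0475 to 0.0626 FPKM in a gene of 1 kb, and no group held more than 32 reads of any of them.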
